A study of Homo sapiens with 4 samples.

Results

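The genes of the proteasome, the particle that degrades ubiquitin-tagged proteins, were examined in U87MG cells, an established human glioblastoma line. They were chosen by name, as the protein-coding genes whose symbol begins with PSM, a letter from A to G and a number. Among the 57905 identifiers with counts and the annotation used to name them, 50 genes met that rule. Of these, 48 are proteasome genes and 2, *PSMC3IP* and *PSME3IP1*, encode partners of proteasome proteins that are not part of the particle. RNA was sequenced from 2 untreated control samples and from 2 samples treated with 50 nM chaetocin for 24 h. Both groups are wild type cells of the same line. Chaetocin is a fungal metabolite that inhibits histone methyltransferases and raises reactive oxygen species. It was given in DMSO, whereas the controls were left untreated, so the compound and its solvent cannot be told apart. The question was whether the transcripts of the proteasome's parts differed between the groups, taken by their place in the particle.

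The 26S proteasome consists of a barrel, the 20S core, capped by the 19S regulatory particle. The core is built from outer rings of alpha subunits, which gate the channel, and inner rings of beta subunits, of which *PSMB5*, *PSMB6* and *PSMB7* carry the proteolytic sites. The cap binds ubiquitin chains, removes them, and threads the unfolded protein into the core with a ring of ATPases. Interferon induces *PSMB8*, *PSMB9* and *PSMB10*, which take the place of the catalytic beta subunits in the immunoproteasome and favour peptides for class I antigen presentation. Dedicated chaperones assemble the core and the cap, and alternative activators bind the core in place of the cap. When proteasome activity is limiting, the transcription factor encoded by *NFE2L1* raises most of these genes together through antioxidant response elements in their promoters.

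The deposited read counts summed to between 21241984 and 32590479 per sample, and levels are given as CPM, read counts scaled to a common library size with the TMM method. A count of 3 was worth 0.0844 to 0.138 CPM, a floor that covers counting error only, because PCR copies of a molecule are not independent. The biological coefficient of variation between replicates was 16.8%. The paper describes duplicates of control and of treated cells that were seeded in wells. No source states that the replicates came from separate cultures, and p-values therefore measure the spread between these samples, which may be technical. Markers of glioblastoma and astroglial cells were uneven. *VIM*, *CD44* and *EGFR* were abundant, whereas *AQP4* had 0 counts in every sample and *S100B* and *SOX2* had 0 counts in both controls. *VIM* was at 2797 and 2270 CPM in the controls and at 1755 and 1148 CPM after chaetocin, *CD44* at 2653 and 2480 against 1431 and 797 CPM, and *EGFR* at 282 and 258 against 153 and 169 CPM. All 6 of these markers that were tested lay below both controls in both chaetocin samples, against 26.0% of all genes. Their median log2 fold change was -0.78. None of the 6 passed in the edgeR test that was used for the members, with the filter on low counts, all 4 samples, and neither a block nor a correction, where *VIM*, *CD44* and *EGFR* had adjusted p-values of 0.134, 0.0699 and 0.0514. All 3 were called lower by DESeq2 (adjusted p = 0.00966, 8.3e-05 and 0.00175), by edgeR without that filter (0.000834, 4.8e-08 and 0.000956) and without chaetocin sample 1 (0.00112, 4.5e-05 and 0.00468). *EGFR* was also called without chaetocin sample 2 (0.00507) and with a correction for GC content (0.0499), and *CD44* without chaetocin sample 2 (0.014) or control sample 1 (0.0171). The summed level of the 10 markers on that list was 5781 and 5052 CPM in the controls and 3376 and 2142 CPM after chaetocin, and its part in the proteasome values was not tested. Of 16 leukocyte markers, 4 had 0 counts in every sample. The chaetocin samples lay above both controls for 7 of the 16, against 26.8% of all genes tested. They lay below both for 0, against 26.0%. The summed level of the 16 markers was 420 and 302 CPM in the controls and 371 and 201 CPM after chaetocin, most of it from *CD74* and *HLA-DRA*. Of the 8 tested, 2 were called higher, as were 1.11% of all genes. Both were at low levels with controls under the floor. *PTPRC* was at 0 and 0.0348 CPM in the controls and at 0.689 and 0.760 CPM after chaetocin (adjusted p = 0.0412, but 0.0553 with DESeq2 and 0.0964 without control sample 1). *ITGAM* was at 0 and 0.0348 CPM in the controls and at 1.10 and 0.816 CPM after chaetocin (adjusted p = 0.0341). The part of leukocyte markers in the results was not tested.

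Of the 48 proteasome genes, 45 passed the filter on low counts. *PSMA8*, the testis form of an alpha subunit, and *PSMB11*, the thymus form of a catalytic subunit, had 0 counts in all 4 samples, which allows a level of up to 0.138 CPM. *PSMB3*, a structural beta subunit, was not analysed here, because its identifier in GENCODE v29 has no row in the counts. Counts that it may have under an older identifier were not used here. Neither of the 2 partner genes passed the test. *PSMC3IP* was at 12.1 and 13.7 CPM in the controls and at 21.8 and 14.7 CPM after chaetocin, with an adjusted p of 0.270. *PSME3IP1* was at 104 and 119 CPM in the controls and at 123 and 107 CPM after chaetocin, with an adjusted p of 0.904.

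No proteasome gene passed the test in either direction. Across all 16416 genes tested, edgeR's quasi-likelihood test with Benjamini-Hochberg adjustment called 182 genes higher (1.11%) and 122 lower (0.743%) in chaetocin-treated cells, which is 1.85% in either direction. With libraries scaled by their total counts alone that split was 360 and 73. Among the 45 proteasome genes 0 were higher and 0 were lower, and DESeq2 also called 0 in either direction, against 2.35% higher and 2.93% lower of all genes. The lowest adjusted p among the members was 0.190, for *PSMB8*. At an unadjusted p under 0.05, 1 member was higher (*PSME2*) and 4 were lower (*PSMB8*, *PSMC2*, *PSMD5* and *PSME4*), against 10.9% and 9.43% of all genes, or 20.3% in either direction. The members' estimates were also small. All 45 lay within 1.5-fold of the controls, as did 78.3% of all genes and 82.6% of the 13151 protein-coding genes tested. The 95% confidence interval stayed within 2-fold in 44 of 45, against 61.4% of all genes and 71.7% of the protein-coding genes. The exception was *PSMG3*. For 26 of the 45 the interval stayed within 1.5-fold. The median standard error was 0.16 in the members, 0.19 in protein-coding genes and 0.21 over all genes. The part of count level in these intervals was not tested. In RNA from whole cultures, fewer cells of a type and less RNA per cell cannot be told apart.

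**Figure D1:**
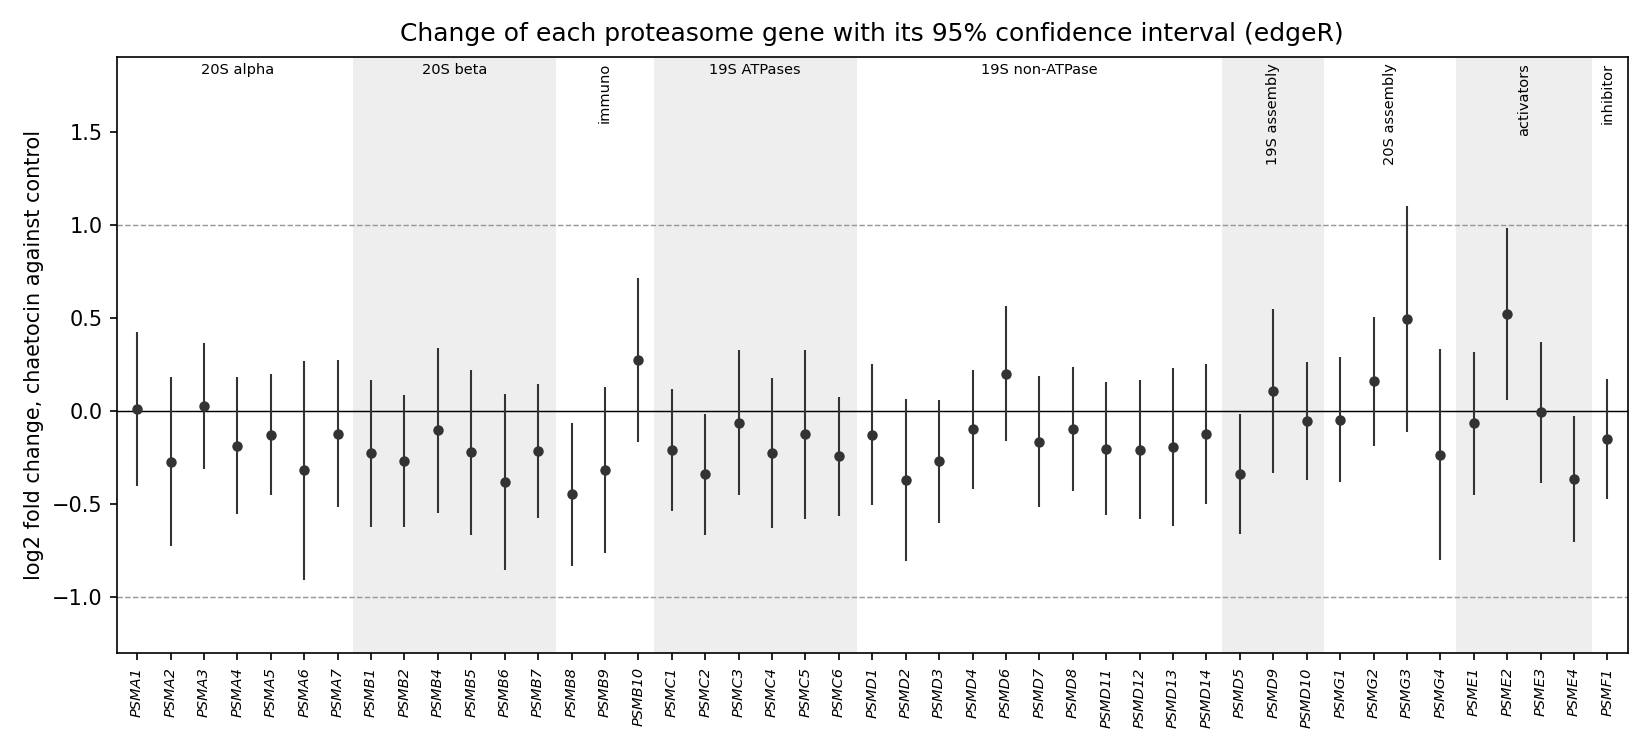
Log2 fold change of each of the 45 proteasome genes tested, chaetocin against control (edgeR, n = 2 samples per group), with the genes ordered by their place in the particle. Points are estimates, bars are 95% confidence intervals, and the dashed lines mark 2-fold. All points lie within 1.5-fold and the interval of *PSMG3* alone crosses a dashed line.

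Although no gene passed, the estimates were not spread evenly about 0. The log2 fold change was below 0 in 37 of the 45 members, against 49.1% of all genes, and its median was -0.17, against 0.01 over all genes. Both chaetocin samples lay below both controls in 20 members, which is 44.4% against 26.0% of all genes, and above both controls in 4, which is 8.89% against 26.8%. These 4 were *PSMB10*, *PSMD6*, *PSMG2* and *PSME2*. Of the protein-coding genes tested, 52.3% had a log2 fold change below 0, 28.6% lay below both controls and 24.5% above both. The size of the shift depended on the scaling, since with total counts alone 23 of 45 members were below 0 and the members' median was -0.01. That scaling moved the median of all genes to 0.17, so the members lay -0.18 from all genes with it and -0.17 with TMM. As a sum over the 45 genes, the level was 7228 and 7355 CPM in the controls and 6902 and 5952 CPM in chaetocin samples 1 and 2. As a share of the total counts it was 0.681% and 0.696% in the controls and 0.707% and 0.649% after chaetocin, so that on this scale sample 1 was the highest of the 4 and sample 2 the lowest.

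Most of the shift came from 1 library. Measured against the mean of the controls, the median member lay at -0.05 on the log2 scale in chaetocin sample 1 and at -0.26 in chaetocin sample 2. In sample 1, 30 of the 45 members were below the control mean, and in sample 2, 38 were. Between the 2 controls the median difference was -0.00101, with single members from -0.37 in *PSME1* to 0.30 in *PSMD9*. Without chaetocin sample 2 the median log2 fold change was -0.06, with 30 of 45 below 0, and without chaetocin sample 1 it was -0.26, with 39 of 45 below 0. The calls moved as well. Without chaetocin sample 1, in which case the remaining sample is assumed to vary as the controls do, 8 members were called lower: *PSMD2*, *PSMB8*, *PSMB1*, *PSMD13*, *PSMB5*, *PSMB6*, *PSMC5* and *PSMC4*. None was called higher, and of the 17644 genes tested in that fit 9.48% were called lower and 7.55% higher. Without chaetocin sample 2, *PSMG3* and *PSME2* were called higher and *PSME4* lower, where 4.23% and 5.59% of 16819 genes were called higher and lower.

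**Figure D2:**
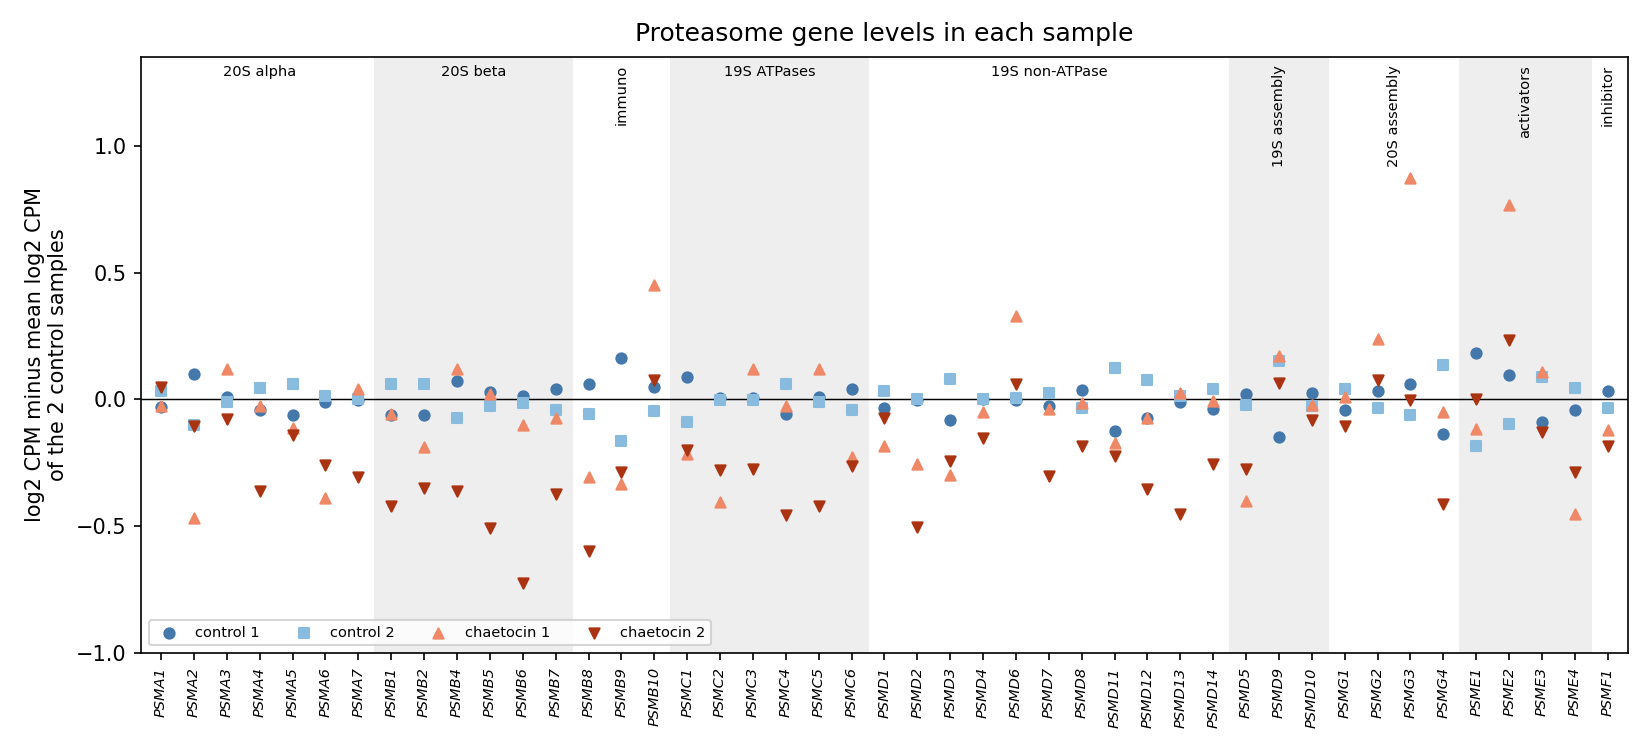
Level of each proteasome gene in each sample, as log2 CPM minus the mean log2 CPM of the 2 controls, with genes ordered by their place in the particle. Circles and squares are the controls, upward and downward triangles are chaetocin samples 1 and 2. In chaetocin sample 2, 38 of 45 genes lie below 0, and in sample 1, 30 do.

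The gap between the 2 chaetocin samples differed among the members by base composition. Across the 45 members, the log2 difference of chaetocin sample 2 from sample 1 had a Spearman rho of -0.54 with the GC content of the principal transcript, where the same value over 15869 genes was -0.14. The 22 members above 50% GC had a median difference of -0.36 and the 23 others one of -0.06. With transcript length rho was 0.38 across the members and 0.23 across all genes. The difference between the 2 controls had the same signs, with rho of -0.23 across the members and -0.15 across all genes for GC content, and of 0.32 and 0.11 for length. These points share 2 libraries and genes are not independent replicates. The part of base composition in the shift was not tested, and with a correction of each sample for GC content the members' median log2 fold change was -0.15, with 37 of 45 below 0.

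In the 20S core, 11 of the 13 genes tested had a log2 fold change below 0, with a median of -0.22, or -0.06 with total counts alone and -0.07 without chaetocin sample 2, and 0 passed the test. The summed level of the 13 genes was 1674 and 1680.1 CPM in the controls, 1657 CPM in chaetocin sample 1 and 1330.3 CPM in chaetocin sample 2. Chaetocin sample 2 was therefore the low one, and sample 1 was close to the controls. As a share of the total counts, sample 1 was above both controls (0.170% against 0.158% and 0.159%) and sample 2 below them (0.145%). Within the alpha ring the median was -0.13 over 7 genes, which turned to 0.04 with total counts alone and was -0.04 without chaetocin sample 2. Its highest estimate was that of *PSMA3*, at 155 and 153 CPM in the controls and 167 and 146 CPM after chaetocin, with a log2 fold change of 0.02 ± 0.15 (SE). Its lowest was that of *PSMA6*, at 4.18 and 4.25 CPM in the controls and 3.22 and 3.52 CPM after chaetocin, with a log2 fold change of -0.32 ± 0.26 and an adjusted p of 0.527. The groups of *PSMA3* overlapped, and those of *PSMA6* did not. The other 5 alpha subunits had log2 fold changes from -0.27 to 0.01.

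All 6 beta subunits tested had estimates below 0, from -0.10 for *PSMB4* to -0.38 for *PSMB6* and with a median of -0.23, whereas 5 of 6 were below 0 with total counts alone. Without chaetocin sample 2 the median of the beta ring was -0.07, with 4 of 6 below 0, and without chaetocin sample 1 it was -0.39. *PSMB6*, which carries the caspase-like site, was at 81.7 and 80.3 CPM in the controls and at 75.5 and 49.0 CPM after chaetocin. Its log2 fold change was -0.38 ± 0.21 and its adjusted p 0.338. *PSMB5*, with the chymotrypsin-like site, was at 51.3 and 49.4 CPM in the controls and at 51.1 and 35.4 CPM after chaetocin. *PSMB7*, with the trypsin-like site, was at 153 and 144 CPM in the controls and at 141 and 115 CPM after chaetocin. For all 3 catalytic subunits chaetocin sample 2 was the lowest of the 4 samples, and for *PSMB5* sample 1 lay between the controls. *PSMB4*, a structural subunit, was at 308 and 278 CPM in the controls and at 317 and 228 CPM after chaetocin, so that its groups overlapped. The structural subunits *PSMB1* and *PSMB2* had log2 fold changes of -0.23 and -0.27. Set against the mean of the controls, the ring's median was at -0.06 in chaetocin sample 1 and at -0.40 in chaetocin sample 2.

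In the 19S cap, 16 of 17 genes had estimates below 0, against 49.1% of all genes. Both chaetocin samples lay below both controls in 9 of them (52.9%), against 26.0% of all genes. The median was -0.20, or -0.04 with total counts alone, with 0 calls. Against the mean of the controls the median was at -0.05 in chaetocin sample 1 and -0.26 in chaetocin sample 2, and the median log2 fold change was -0.06 without sample 2. Their summed level was 4582 and 4692 CPM in the controls and 4285 and 3741 CPM after chaetocin, below both controls in both samples with TMM scaling. As a share of the total counts it was 0.431% and 0.444% in the controls and 0.439% and 0.408% after chaetocin, so that on this scale sample 1 lay between the controls. All 6 ATPases had estimates below 0, or 4 of 6 with total counts alone, and a median of -0.22. Without chaetocin sample 2 that median was -0.13, with 4 of 6 below 0. The lowest was *PSMC2*, at 153 and 152 CPM in the controls and at 115 and 125 CPM after chaetocin. Its log2 fold change was -0.34 ± 0.14, with an adjusted p of 0.227. The highest was *PSMC3*, at 167 and 167 CPM in the controls and at 181 and 138 CPM after chaetocin, with a log2 fold change of -0.06 ± 0.17. *PSMC2* was lower in both chaetocin samples by a similar amount, whereas the 2 chaetocin samples of *PSMC3* lay on either side of the controls. The other 4 ATPases had log2 fold changes from -0.25 to -0.13.

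Of the 11 non-ATPase subunits of the cap, 10 had estimates below 0, or 6 with total counts alone, and their median of -0.17 was -0.06 without chaetocin sample 2, with 9 below 0. *PSMD2*, a scaffold subunit that receives ubiquitin-like domains, was the most abundant proteasome transcript. It was at 1457 and 1461 CPM in the controls and at 1223 and 1029.6 CPM after chaetocin, a log2 fold change of -0.37 ± 0.19 with an adjusted p of 0.316. Its 2 controls were nearly equal and both chaetocin samples were below them. *PSMD6* was the only subunit of the cap with an estimate above 0. It was at 202 and 203 CPM in the controls and at 254 and 211 CPM after chaetocin, a log2 fold change of 0.20 ± 0.16 with an adjusted p of 0.522. The other 9, among them the ubiquitin receptor *PSMD4* and the deubiquitinase *PSMD14*, had log2 fold changes from -0.27 to -0.10.

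The estimates of the immunoproteasome subunits differed in sign, and 0 of the 3 tested passed. *PSMB8* (ENSG00000204264; chromosome 6, 32840717 to 32844703, minus strand, GRCh38) was at 37.9 and 34.9 CPM in the controls and at 29.4 and 24.0 CPM after chaetocin, below both controls in both samples. Its log2 fold change was -0.45 ± 0.17, with a 95% confidence interval from -0.83 to -0.06 and an adjusted p of 0.190. *PSMB9* (ENSG00000240065; chromosome 6, 32844136 to 32859585, plus strand) was at 18.4 and 14.7 CPM in the controls and at 13.1 and 13.5 CPM after chaetocin, a log2 fold change of -0.32 ± 0.19 with an adjusted p of 0.397. *PSMB10* (ENSG00000205220; chromosome 16, 67934502 to 67937087, minus strand) was at 17.3 and 16.1 CPM in the controls and at 22.8 and 17.6 CPM after chaetocin, a log2 fold change of 0.27 ± 0.19 with an adjusted p of 0.464. In this last gene the groups were close, and sample 1 was the higher of the chaetocin pair. Another gene on the same strand shares 34.8% of the exon bases of *PSMB10*. The median of the 3 was -0.32, and it rests on few genes, since it was -0.16 without control sample 1 and -0.49 without control sample 2. *PSMB8* overlaps *PSMB9* and the antisense transcript *PSMB8-AS1*, both on the opposite strand of chromosome 6. Together they cover 20.6% of the exon bases of *PSMB8*. Where counting ignored strand, reads on these shared bases cannot be told apart. *PSMB9* shares 5.66% of its own exon bases with *PSMB8-AS1* on the same strand. Counting by strand cannot tell those reads apart either.

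**Figure D3:**
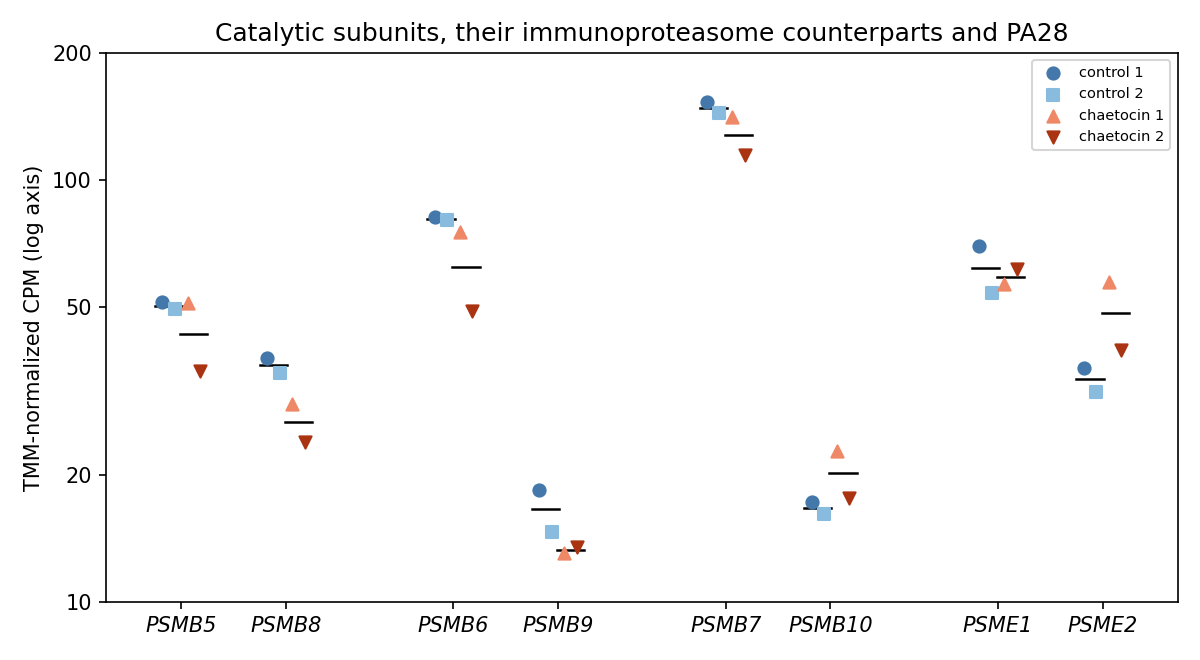
TMM-normalized CPM, on a log axis, of the catalytic subunits *PSMB5*, *PSMB6* and *PSMB7*, each beside the immunoproteasome subunit that replaces it, and of the PA28 genes *PSME1* and *PSME2*. Points are samples and bars are group means of 2 samples. *PSMB8* and *PSMB9* lie below both controls after chaetocin, and *PSMB10* and *PSME2* above.

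Set against the subunits they replace, the immunoproteasome genes were the less abundant. Per length of transcript, in RPKM, the ratio of *PSMB8* to *PSMB5* was 0.850 and 0.814 in the controls and 0.663 and 0.781 after chaetocin. The ratio of *PSMB9* to *PSMB6* was 0.246 and 0.199 in the controls and 0.188 and 0.30 after chaetocin, so the groups overlapped. The ratio of *PSMB10* to *PSMB7* was 0.0909 and 0.0900 in the controls and 0.130 and 0.123 after chaetocin. The ratio was lower after chaetocin for the first pair and higher for the last, in both samples. An exact two-sided permutation test of 2 samples against 2 cannot give a p below 0.333, and no other test of these ratios was run. The level of a ratio depends on the transcript whose length was used, and its difference between samples does not.

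The promoters of *PSMB8*, *PSMB10*, *PSME1* and *PSME2* are shown because they hold a match to the interferon-stimulated response element. RefSeq windows on GRCh38.p14, from 250 bases before to 50 bases after a gene's start, were given for 39 of the 45 members tested, and none for *PSMA7*, *PSMB1*, *PSMB6*, *PSMB7*, *PSMD4* and *PSMG3*. Its letters, TTTC and again TTTC with any 2 bases between them, were searched on both strands and were in 3.57% of all 35116 windows and in 7 of the 48 windows of these members (14.6%), those of the 4 named and of *PSMA4*, *PSMB4* and *PSMG4*. The gamma-activated site TTCNNNGAA was in 7.66% of all windows and in 7 of the 48 (14.6%). Capitals mark both motifs in the sequences, which run 5′ to 3′ in the direction of the gene.
PSMB8 promoter, chr6:32843998-32844297, minus strand: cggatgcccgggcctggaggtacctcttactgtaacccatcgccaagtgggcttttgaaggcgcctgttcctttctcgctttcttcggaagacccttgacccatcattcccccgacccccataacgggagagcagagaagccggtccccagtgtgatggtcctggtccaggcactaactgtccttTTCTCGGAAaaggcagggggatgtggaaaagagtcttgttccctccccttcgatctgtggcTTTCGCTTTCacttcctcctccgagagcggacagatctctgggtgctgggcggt
PSMB10 promoter, chr16:67936801-67937100, minus strand: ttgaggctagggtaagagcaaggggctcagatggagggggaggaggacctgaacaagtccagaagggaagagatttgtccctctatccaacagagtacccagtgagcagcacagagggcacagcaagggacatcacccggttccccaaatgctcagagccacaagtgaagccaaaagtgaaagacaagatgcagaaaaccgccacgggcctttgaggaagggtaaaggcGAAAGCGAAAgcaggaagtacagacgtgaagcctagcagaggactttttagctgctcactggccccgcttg
PSME1 promoter, chr14:24135944-24136243, plus strand: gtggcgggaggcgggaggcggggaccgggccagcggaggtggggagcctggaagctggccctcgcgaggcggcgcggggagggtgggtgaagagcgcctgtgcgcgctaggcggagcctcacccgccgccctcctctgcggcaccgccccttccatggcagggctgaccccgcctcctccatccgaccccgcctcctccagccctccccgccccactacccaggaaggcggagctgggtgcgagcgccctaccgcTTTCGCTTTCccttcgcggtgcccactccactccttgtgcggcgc
PSME2 promoter, chr14:24146561-24146860, minus strand: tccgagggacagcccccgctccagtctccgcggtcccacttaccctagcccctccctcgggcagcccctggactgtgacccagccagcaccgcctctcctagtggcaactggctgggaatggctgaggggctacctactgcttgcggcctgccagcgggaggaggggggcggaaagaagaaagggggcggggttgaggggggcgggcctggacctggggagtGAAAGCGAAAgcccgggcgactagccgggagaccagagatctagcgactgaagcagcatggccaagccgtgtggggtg
The match lies across the start in *PSMB8*, whose window also holds the gamma-activated site, at position -21 in *PSMB10* and -28 in *PSME2*, and at position 6 in *PSME1*. A second window of *PSMB8* and the window of *PSMB9* held neither motif. The 7 members with the first motif had a median log2 fold change of -0.10 and the 32 without it one of -0.18. For the gamma-activated site the median was -0.27 over 7 members, of which 7 were below 0. Over the 32 without that site it was -0.13, and 25 of them were below 0. Among the 4 genes printed, the values went both ways, from -0.45 for *PSMB8* to 0.52 for *PSME2*. A match is a description of letters and not of binding.

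Of the activators that replace the cap, *PSME2* had the highest estimate of all members. It encodes the beta subunit of PA28, which with the alpha subunit from *PSME1* opens the core for peptides. *PSME2* (ENSG00000100911; chromosome 14, 24143362 to 24147570, minus strand, GRCh38) was at 35.9 and 31.4 CPM in the controls and at 57.2 and 39.5 CPM after chaetocin, above both controls in both samples. Its log2 fold change was 0.52 ± 0.20, with a 95% confidence interval from 0.06 to 0.98 and an adjusted p of 0.202. It passed without chaetocin sample 2 (adjusted p = 0.00871), while without chaetocin sample 1 its log2 fold change was 0.23 (adjusted p = 0.317). *PSME1* was at 69.7 and 54.0 CPM in the controls and at 56.6 and 61.4 CPM after chaetocin, a log2 fold change of -0.07 ± 0.17 with an adjusted p of 0.865. The ratio of *PSME2* to *PSME1* in RPKM was 0.369 and 0.417 in the controls and 0.724 and 0.461 after chaetocin, values to which the same limit applies.

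The estimates of the other activators and of the inhibitor were smaller in size than that of *PSME2*. *PSME3*, the nuclear PA28 gamma, was at 247 and 280 CPM in the controls and at 284 and 241 CPM after chaetocin, a log2 fold change of -0.01 ± 0.16. *PSME4*, which encodes PA200, was at 178 and 189 CPM in the controls and at 134 and 151 CPM after chaetocin, a log2 fold change of -0.37 ± 0.15 with an adjusted p of 0.213. *PSMF1*, the inhibitor PI31, was at 63.1 and 60.2 CPM in the controls and at 56.7 and 54.2 CPM after chaetocin, a log2 fold change of -0.15 ± 0.14 with an adjusted p of 0.589. The groups of *PSME3* overlapped, and those of *PSME4* and *PSMF1* did not.

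The 7 assembly factors had a median of -0.05, which turned to 0.03 with upper-quartile scaling and to 0.11 with total counts alone, and 0 passed. Leaving out 1 library also moved it, to 0.0012 without chaetocin sample 2, -0.0801 without chaetocin sample 1 and -0.0172 without control sample 2. Of the chaperones of the cap's base, *PSMD5* was at 97.03 and 94.3 CPM in the controls and at 72.4 and 79.0 CPM after chaetocin, a log2 fold change of -0.34 ± 0.14 with an adjusted p of 0.229. *PSMD10*, also known as gankyrin, was at 77.4 and 74.8 CPM in the controls and at 74.9 and 71.9 CPM after chaetocin. *PSMD9* was at 12.7 and 15.6 CPM in the controls and at 15.8 and 14.7 CPM after chaetocin. Among these 3, the groups of *PSMD5* alone did not overlap.

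The chaperones of the core, which pair as *PSMG1* with *PSMG2* and *PSMG3* with *PSMG4* to build the alpha ring, did not share a direction. *PSMG3* was at 24.5 and 22.5 CPM in the controls and at 43.0 and 23.4 CPM after chaetocin, so that chaetocin sample 1 stood alone. Its log2 fold change was 0.49 ± 0.27 with an adjusted p of 0.340, and without chaetocin sample 1 it was -0.0018. Its partner *PSMG4* was at 6.11 and 7.38 CPM in the controls and at 6.48 and 5.04 CPM after chaetocin, a log2 fold change of -0.23 ± 0.25. *PSMG2* was at 39.0 and 37.3 CPM in the controls and at 44.9 and 40.2 CPM after chaetocin, a log2 fold change of 0.16 ± 0.15. *PSMG1* was at 47.2 and 49.9 CPM in the controls and at 48.9 and 45.1 CPM after chaetocin, a log2 fold change of -0.05 ± 0.15. *POMP*, the chaperone that completes the core and lies outside the rule, was at 37.4 and 37.6 CPM in the controls and at 38.1 and 35.5 CPM after chaetocin, a log2 fold change of -0.03 ± 0.15.

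Levels within the particle were far from equal. In RPKM of the principal transcript, the mean of the controls ran from 4.09 for *PSMA6* to 423 for *PSMD2*, with *PSMB4* at 304 and *PSMA7* at 288. *PSMA1*, *PSMA2*, *PSMA6*, *PSMB10* and *PSMD9* share over 10% of their exon bases with another gene on the same strand, in each case a protein-coding gene known only by a clone name and in *PSMD9* also *WDR66*, and lay between 4.09 and 13.7 RPKM. The 40 others lay between 8.04 and 423 RPKM. Whether reads on these 5 genes were set aside as ambiguous was not tested, and the counting rule is not given in the sources used here. Their median log2 fold change was 0.01, against -0.18 for the other 40. Pseudogenes took few reads, since 31 annotated pseudogenes of 11 members held at most 0.716% of the counts of their member.

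The other genes of the pathway were read from 4 lists. Of 12 proteasome subunits and factors without a PSM symbol, such as the cap's ubiquitin receptor *ADRM1* and the deubiquitinase *USP14*, 0 passed. Their log2 fold changes ran from -0.29 to 0.47, with a median of -0.03. Of 16 genes of ubiquitin supply, shuttling and the p97 unfoldase, 0 passed. Their log2 fold changes ran from -0.47 to 0.90, with 12 below 0 and a median of -0.21. Of 11 genes of interferon signalling and class I antigen processing, 0 passed. Their log2 fold changes ran from -0.52 to 0.71, with 8 below 0, 3 above 0 and a median of -0.23. In that list, *TAP1*, a subunit of the peptide transporter, starts 488 bases from *PSMB9* on the opposite strand. It was at 26.1 and 24.4 CPM in the controls and at 26.1 and 30.5 CPM after chaetocin, a log2 fold change of 0.17 ± 0.16 against -0.32 for *PSMB9*. Of 13 genes that control proteasome transcription, 1 passed, where 1.85% of all genes did in either direction. Their log2 fold changes ran from -0.68 to 1.48, 7 were above 0 and the median was 0.07.

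The gene that passed was *MAFG*, a small MAF protein that pairs with the factors of the antioxidant response element. It was at 77.1 and 97.4 CPM in the controls and at 234 and 253 CPM after chaetocin, well apart, with a log2 fold change of 1.48 ± 0.17 and an adjusted p of 0.0173. *NFE2L1* was at 384 and 337 CPM in the controls and at 268 and 183 CPM after chaetocin, below both controls in both samples. Its log2 fold change was -0.68 ± 0.21 with an adjusted p of 0.126, while DESeq2 gave an adjusted p of 0.0304, edgeR without a filter on low counts gave 0.00427 and the fit without chaetocin sample 1 gave 0.00056. Without chaetocin sample 2 the log2 fold change of *NFE2L1* was -0.43 (adjusted p = 0.0842), without either control in turn the adjusted p was 0.456 and 0.222, and under the other scalings, filter and corrections it was between 0.108 and 0.172. *NFE2L2*, which encodes NRF2, was at 112 and 104 CPM in the controls and at 85.3 and 88.2 CPM after chaetocin, a log2 fold change of -0.32 ± 0.14 with an adjusted p of 0.247. *SQSTM1*, a ubiquitin receptor of autophagy that was picked out after its values were seen, was at 467 and 707 CPM in the controls and at 766 and 1429 CPM after chaetocin, a log2 fold change of 0.90 ± 0.32 with an adjusted p of 0.166. For *SQSTM1* DESeq2 gave an adjusted p of 0.0291, edgeR without a filter on low counts 0.000195 and the fit without chaetocin sample 1 0.00486, whereas without chaetocin sample 2 the log2 fold change was 0.38 (adjusted p = 0.342) and the other fits without a block gave between 0.0894 and 0.494.

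**Figure D4:**
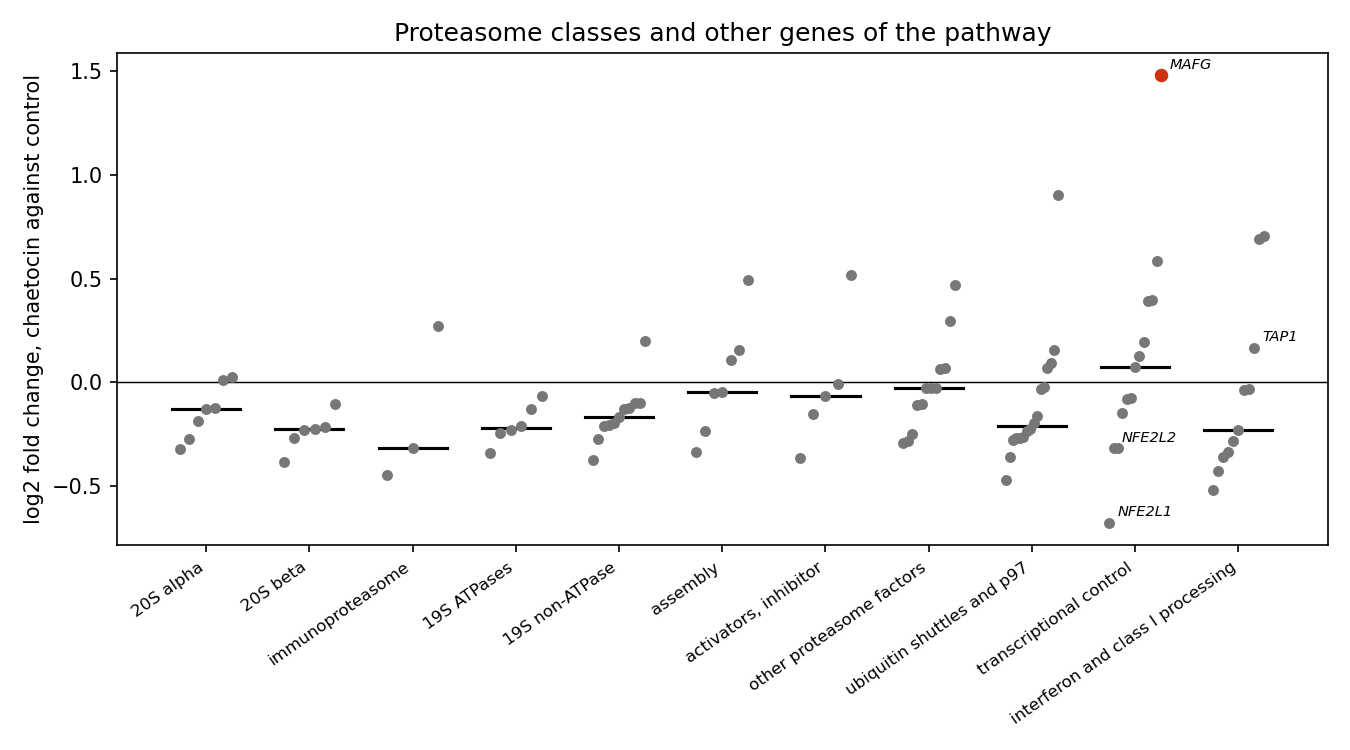
Log2 fold change, chaetocin against control (edgeR, n = 2 samples per group), of each gene tested in the proteasome classes and in the 4 lists of other pathway genes. Points are genes, black bars are the medians of the lists, and the red point is the gene with an adjusted p under 0.05, *MAFG* at 1.48. No proteasome class has such a point.

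Antioxidant response elements are shown because *NFE2L1* is known to act on proteasome genes through them. The letters TGACNNNGC, searched on both strands, were in 13.3% of all 35116 windows and in 14 of the 48 windows of the members (29.2%), which belong to 14 genes. For each class with a match, the first site of the member with the lowest log2 fold change is printed, 5′ to 3′ in the direction of the gene, with the motif or its reverse complement in capitals.
PSMA4, chr15:78540650-78540678, plus strand: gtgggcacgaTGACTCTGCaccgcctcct
PSMB9, chr6:32854034-32854062, plus strand: gggcggggctGCCTCGTCActtgtctcgg
PSMC4, chr19:39971182-39971210, plus strand: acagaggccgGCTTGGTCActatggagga
PSMD3, chr17:39980760-39980788, plus strand: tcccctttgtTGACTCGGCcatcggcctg
PSMD5, chr9:120843038-120843066, minus strand: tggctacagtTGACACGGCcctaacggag
PSMG1, chr21:39183616-39183644, minus strand: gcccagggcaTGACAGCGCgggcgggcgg
PSME4, chr2:53971009-53971037, minus strand: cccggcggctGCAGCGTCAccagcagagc
These sites lie from 183 bases before the start, in *PSMG1*, to 28 bases after it, in *PSMC4*. The 14 members with a match had a median log2 fold change of -0.16 and the 25 without one of -0.17. The box CCAAT, bound by NF-Y, was in 34.6% of all windows and in 18 of the 48 (37.5%), which belong to 18 genes whose median was -0.13, against -0.20 for the 21 without it.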

How the data were processed

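RNA was sequenced from 4 samples of U87MG cells, 2 untreated and 2 given chaetocin (50 nM, 24 h). For each sample the authors deposited a table of raw read counts per Ensembl gene, without normalization. Per the submitters' processing notes, cutadapt, TopHat2 and SAMtools were used with the build GRCh37, with versions, the counting tool, its annotation and its use of strand not given in the sources used here. Symbols, coordinates and the lengths of principal transcripts came from GENCODE v29 (GRCh38), which held 52338 of the 57905 identifiers, and promoter windows from RefSeq on GRCh38.p14.

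Counts were tested with edgeR 4.0.16 in R 4.3.3, using filterByExpr (minimum count 10), TMM scaling, a robust quasi-likelihood fit without a block, and Benjamini-Hochberg adjustment over 16416 genes with a threshold of 0.05. RPKM is CPM per kilobase of the principal transcript. DESeq2 1.42.0 was an alternative, as were other scalings and filters, the replicate block, leaving out each sample, and corrections for transcript length and GC content that were chosen after seeing the data. The test was tested on simulated data.

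The members and lists were chosen with earlier results of these data known. Named genes were called members, the highest and lowest estimate of each class, the catalytic subunits, all activators, chaperones and the inhibitor, members without counts, called genes of each other list, and *NFE2L1*, *NFE2L2*, *POMP* and *TAP1*. Some genes outside this rule were also given values, among them *SQSTM1*, *PSMB1*, *PSMB2* and the markers *VIM*, *CD44* and *EGFR*. The remaining genes are given by range or by count.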

Additional observations from a re-analysis of the deposited data

How the results depend on the processing

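No proteasome gene was called with other size factors, with another filter, with DESeq2 or with either correction. Counts of all genes called higher and lower were 360 and 73 with total counts alone, 787 and 759 without a filter, 114 and 80 where each sample had to have at least 10 counts, 385 and 481 with DESeq2, and 1791 and 1548 at an unadjusted p under 0.05, where 1 member was higher and 4 were lower.

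A replicate block gave 1036 genes higher and 1053 lower, and 1 member, *PSME2*, was higher. The numbers are only shared, with nothing that says they pair samples, and the log2 differences between replicates correlated between the groups with r = 0.123 across genes. The block changed the call of no other member, and of the other genes named above it also called *NFE2L1* (adjusted p = 0.00472), *VIM* (0.00979), *CD44* (0.00017), *EGFR* (0.00142) and *CD74* (0.0273) lower and *SQSTM1* (0.0025) higher. Among the remaining genes of the lists it added calls for *UBA6* and *NES*, which were lower, and *NFYB* and *IRF1*, which were higher.

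Leaving out each sample gave between 215 and 1332 genes higher and between 97 and 1673 lower, and between 0 and 2 members higher and 0 and 8 lower, with the high counts without chaetocin sample 1 or 2. The median log2 fold change ranged from -0.26 to -0.0585 over all members, from -0.35 to -0.0658 in the 20S core, from -0.26 to -0.0585 in the 19S cap, from -0.0801 to 0.0012 in the assembly factors and from -0.49 to -0.16 in the immunoproteasome. Low values of the first 4 came without chaetocin sample 1 and high ones without sample 2.

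With total counts alone the medians were -0.0069 over all members, -0.0563 in the core, -0.0387 in the cap, 0.11 in the assembly factors and -0.15 in the immunoproteasome. With upper-quartile scaling the last 2 were 0.0278 and -0.24, with a correction for transcript length -0.11 and -0.39, and as means 0.0121 and -0.16. For these shifts, other than those made by leaving out samples, the cause was not tested.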
